A study of Mus musculus with 42 samples.

Results

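The heat shock protein genes described here, 9 of the 21186 genes on the array, were followed in the aorta and skeletal muscle of diabetic and healthy mice, namely Hspa1a, Hspa1b, Hspb1, Hspa8, Dnajb1, Hspd1, Hspe1, Hsf1 and Cryab. The members were every probe whose gene name was one of these symbols, which gave 17 of the 41174 probes, and no measured value entered that choice. The study asked how a Chinese herbal compound, its parts and rosiglitazone act on diabetic disease of the large vessels. It measured RNA on 42 single-colour mouse arrays, with 3 arrays for each of 7 groups in each of 2 tissues.

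All mice were males aged 18 to 20 weeks. The healthy group was C57BL/6, and the diabetic group was KK/Ay, a strain that carries the yellow agouti allele and becomes diabetic spontaneously, so the difference between these groups is also one of strain. The macroangiopathy group was KK/Ay given a high-fat diet and the nitric oxide synthase inhibitor L-NAME for 8 weeks. The SHENQI, yangyinyiqi, huoxue and rosiglitazone groups were mice of that model, gavaged daily for 8 weeks with the agent they are named for, and the other 3 groups were gavaged with saline. The study's methods state that tissue was taken from 3 randomly chosen mice in each group. The labels do not link arrays to mice, or say whether the aorta and the muscle of one number came from the same mouse. P-values are therefore read as measuring the spread between these arrays.

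Heat shock proteins are chaperones, which bind unfolded or partly folded proteins and keep them from clumping. The HSP70 proteins hold a client chain and release it with ATP, a J-domain protein such as Dnajb1 hands the client over, and the small heat shock proteins hold clients without ATP. Heat shock factor 1, the product of Hsf1, binds repeats of the bases GAA and TTC in front of chaperone genes when unfolded protein builds up. Striated muscle is known for high levels of the small heat shock proteins, which bind to the sarcomere.

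The probe sequences matter here because probes of one gene did not always read alike. The 2 Hspa8 probes are listed in the files on the plus strand of mm9 chromosome 9, both to the same mRNA, with A_52_P12877 at chr9:40611142-40611201 and A_51_P170371 at chr9:40612674-40612733, and they are shown because they did not give the same group differences in every comparison.
Hspa8 A_52_P12877: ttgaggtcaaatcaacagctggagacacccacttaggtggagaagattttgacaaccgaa
Hspa8 A_51_P170371: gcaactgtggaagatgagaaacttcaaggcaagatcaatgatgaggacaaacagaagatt

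The 2 Hspa1b probes, A_52_P304902 at chr17:35095608-35095667 and A_52_P52803 at chr17:35094200-35094259 (mm9, minus strand), are shown because the files list them for the mRNAs of both Hspa1a and Hspa1b. These neighbouring genes encode near-identical proteins, so the Hspa1b values can include Hspa1a RNA. The 2 Hspa1a probes are listed for the Hspa1a mRNA and not for that of Hspa1b.
Hspa1b A_52_P304902: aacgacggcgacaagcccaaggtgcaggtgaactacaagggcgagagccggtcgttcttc
Hspa1b A_52_P52803: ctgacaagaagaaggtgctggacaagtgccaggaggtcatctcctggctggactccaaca

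RefSeq promoters (GRCm38.p6) were given for 6 of the 9 members. The 150 bases upstream of the start are shown for 4 of them, for the HSP70 pair and Hspb1 because Hspa1a varied with Hspa1b in both tissues and with Hspb1 in aorta, and for Hspe1 because it holds the longest run of the motif. They lie at chr17:34972157-34972306 (minus strand) for Hspa1a, chr17:34959239-34959388 (minus strand) for Hspa1b, chr5:135887769-135887918 (plus strand) for Hspb1 and chr1:55087998-55088147 (plus strand) for Hspe1. Capitals mark matches to the pairs GAANNTTC or TTCNNGAA, or to a motif of 3 units that joins both pairs (GAA, TTC and GAA, each 2 bases apart), searched on both strands.
Hspa1a: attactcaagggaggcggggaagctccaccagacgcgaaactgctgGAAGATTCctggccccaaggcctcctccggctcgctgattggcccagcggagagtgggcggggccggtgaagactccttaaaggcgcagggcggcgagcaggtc
Hspa1b: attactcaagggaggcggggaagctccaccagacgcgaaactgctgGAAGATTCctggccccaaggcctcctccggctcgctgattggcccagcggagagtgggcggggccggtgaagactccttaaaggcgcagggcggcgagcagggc
Hspb1: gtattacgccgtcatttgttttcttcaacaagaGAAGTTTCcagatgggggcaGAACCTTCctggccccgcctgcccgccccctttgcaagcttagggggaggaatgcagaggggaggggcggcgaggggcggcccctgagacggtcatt
Hspe1: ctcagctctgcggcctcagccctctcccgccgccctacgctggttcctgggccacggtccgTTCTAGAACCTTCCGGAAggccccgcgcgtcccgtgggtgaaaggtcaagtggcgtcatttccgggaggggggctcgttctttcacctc

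The Hspa1a and Hspa1b stretches differ at 1 of these 150 bases and at 3 of the 250 given upstream. The run in front of Hspe1, between 89 and 72 bases upstream (positions -89 to -72), holds 2 overlapping matches to the 3-unit motif, and the same bases stand in front of 1 of the 2 promoters listed for Hspd1, the neighbour on the other strand. Over all 32851 mouse promoters of this table and the same length, 0.603% held the 3-unit motif and 15.1% held one of the shorter ones. No match was in the 2 Dnajb1 promoters.

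Some facts of the arrays bear on every value below. Between 20200 and 30274 probes of an array were well above background, and every member had a probe above it on each of the 42 arrays. The labels were checked with marker sums, here log2 of the summed intensities of a fixed marker list. The 12 skeletal muscle markers summed to 20.27 to 20.58 in muscle and 12.42 to 19.74 in aorta, and the 6 smooth muscle markers to 14.26 to 15.05 in muscle and 13.05 to 18.01 in aorta. Healthy aorta 1 had the lowest smooth muscle sum of all aortas, 13.05 against 15.60 or more, which is below every muscle array, so its label is not borne out by that list. Diabetic aorta 2 and rosiglitazone aorta 1 had skeletal muscle sums of 19.74 and 19.20, near those of muscle. Arrays of slides 1, 3 and 11 read apart from the other 8 slides: in a limma fit with the 14 group means, 18.5% of 16176 genes and 25% of 29144 probes differed with them. Slide 11 holds the 3 huoxue and 1 rosiglitazone muscle arrays, slide 3 the other 2 rosiglitazone and 2 healthy muscle arrays, and slide 1 holds 4 aorta arrays: 2 healthy, 1 diabetic and 1 SHENQI.

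Levels are given as the log2 of normalised intensity, averaged over a gene's probes, and a difference of 1 on this scale is a change of 2-fold. Levels of different genes are not compared, since each probe has its own brightness. The plot of the 9 members by group and tissue shows all values.

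**Figure D1:**
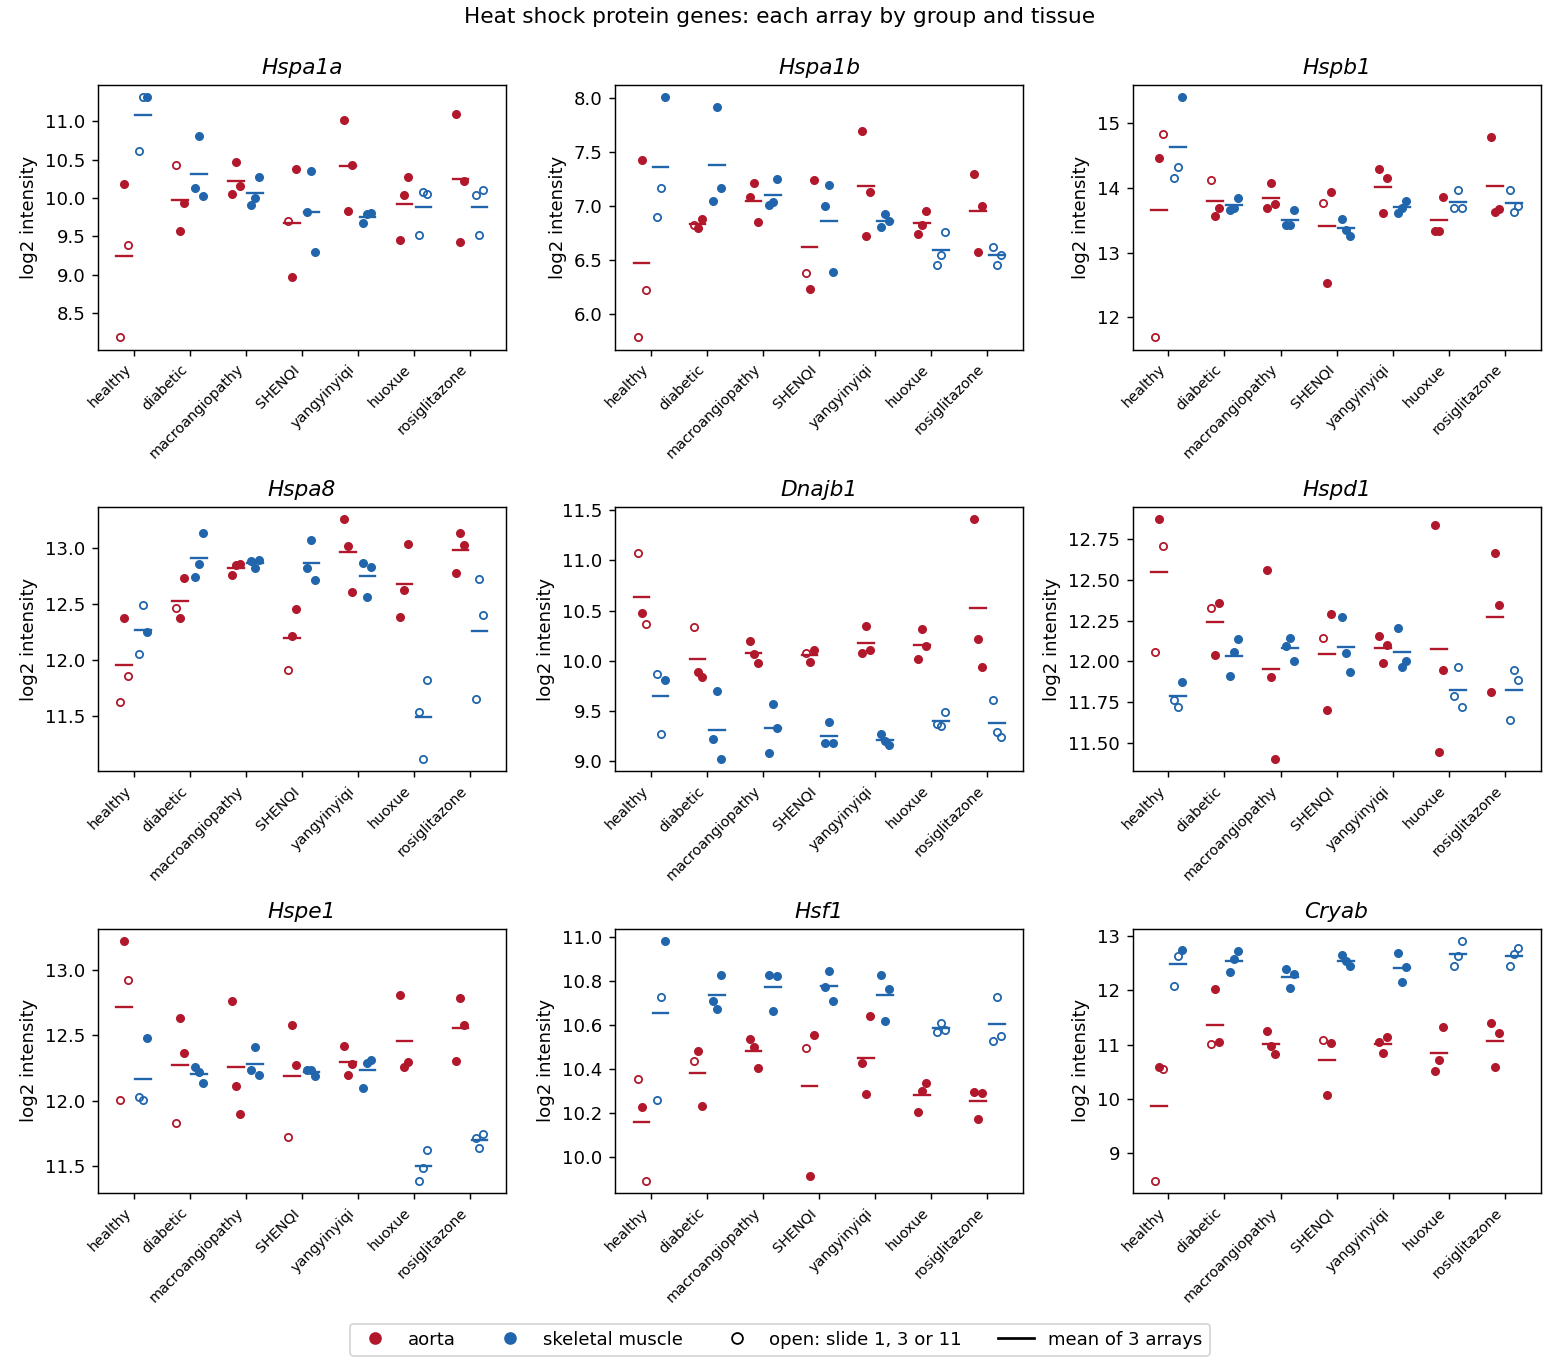
Log2 normalised intensity of each of the 9 members (y axis, its own range in each panel) in the 7 groups (x axis), in aorta (red) and skeletal muscle (blue). Each point is 1 array, bars are means of 3 arrays, and open points are arrays of slides 1, 3 and 11. Cryab and Dnajb1 separated the tissues in every group, and Hspa8 and Hspe1 were lowest in huoxue muscle.

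Cryab, the small heat shock protein also called alpha-B crystallin, was lower in aorta than in muscle in every array. Its levels ran from 8.49 to 12.02 in aorta (median 11.01, 21 arrays) and from 12.04 to 12.91 in muscle (median 12.54). The 2 tissues did not overlap, and the highest aorta value was that of diabetic aorta 2, which also had the highest skeletal muscle sum of the aortas. The difference was -1.66 ± 0.14 (SE), with an adjusted p of 6.18e-13 in limma's moderated test over 42 arrays with group as a covariate. Without healthy aorta 1, diabetic aorta 2 and rosiglitazone aorta 1 it was -1.62 (adjusted p = 1.5e-17). In whole tissue, fewer cells of a type and less RNA per cell cannot be told apart. The 2 probes differed: for A_52_P106482 (mm9 chr9:50564440-50564499, plus strand), shown because it separated the tissues, the difference was -3.02 ± 0.18 with levels of 10.48 to 14.26 in aorta and 14.63 to 16.23 in muscle.
Cryab A_52_P106482: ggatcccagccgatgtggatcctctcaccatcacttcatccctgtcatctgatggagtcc
For the other Cryab probe, A_51_P504423, the ranges of 6.49 to 9.83 in aorta and 8.14 to 10.003 in muscle overlapped, with a difference of -0.30 ± 0.15 (adjusted p = 0.0744).

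Of the 9 members, 5 differed between the tissues at an adjusted p under 0.05, against 76.4% of all genes tested. Dnajb1, the J-domain partner of the HSP70 proteins, was higher in aorta, with 9.84 to 11.41 there and 9.02 to 9.87 in muscle. The ranges of Dnajb1 met only at their edge, the difference was 0.88 ± 0.09 (adjusted p = 1.68e-11), and both of its probes gave this direction (1.15 and 0.60). With slide as a fixed term over all 42 arrays, where slide 4 alone holds both tissues, the Dnajb1 difference was 0.43 ± 0.46 (adjusted p = 0.618), and those of Hspe1 (0.75, adjusted p = 0.18) and Hspd1 (0.72, adjusted p = 0.425) did not pass either. Cryab (-2.24, adjusted p = 0.0315) and Hsf1 (-0.87, adjusted p = 0.0327) passed there, as did Hspa1a (-2.58, adjusted p = 0.0352) and Hspa1b (-1.59, adjusted p = 0.0418). Slide 4 holds healthy muscle 3 and diabetic aortas 2 and 3, which differ in strain as well as in tissue. Diabetic aorta 2 is also the array with a skeletal muscle sum of 19.74, near those of muscle. The fit with slide as a fixed term takes group differences as alike in both tissues. Without a slide term the limma differences were -0.15 for Hspa1a (adjusted p = 0.461) and -0.10 for Hspa1b (adjusted p = 0.474). Hsf1 was lower in aorta by the mean of its probes, at -0.36 ± 0.05 (adjusted p = 1.21e-07), but this direction turned with the probe. Hsf1 A_51_P102943 (-0.53) and A_52_P647582 (-0.83) were lower in aorta, and A_52_P487647, designed to another sequence record, was higher (0.27), as was the value from the brightest probe alone.

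Hspe1 and Hspd1, the co-chaperonin and chaperonin that fold proteins inside mitochondria, were higher in aorta by 0.35 ± 0.11 (adjusted p = 0.00318) and 0.22 ± 0.10 (adjusted p = 0.0485, not passed in 25 of 42 fits that leave out 1 array), but both directions turned with processed signals scaled to the 75th percentile (-0.17 for Hspe1 and -0.21 for Hspd1). The HSP70 genes and Hspb1 did not pass the test between tissues without a slide term. Hspa1a, the stress-inducible HSP70, ran from 8.18 to 11.10 in aorta and 9.30 to 11.32 in muscle. Hspb1, a small heat shock protein that binds actin filaments and intermediate filaments, ran from 11.69 to 14.83 in aorta and 13.26 to 15.40 in muscle. For Hspa8, the constitutive HSP70, the probe means nearly cancelled, with 0.83 ± 0.25 (adjusted p = 0.00309) for A_51_P170371 and -0.63 ± 0.11 (adjusted p = 2.25e-06) for A_52_P12877.

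**Figure D2:**
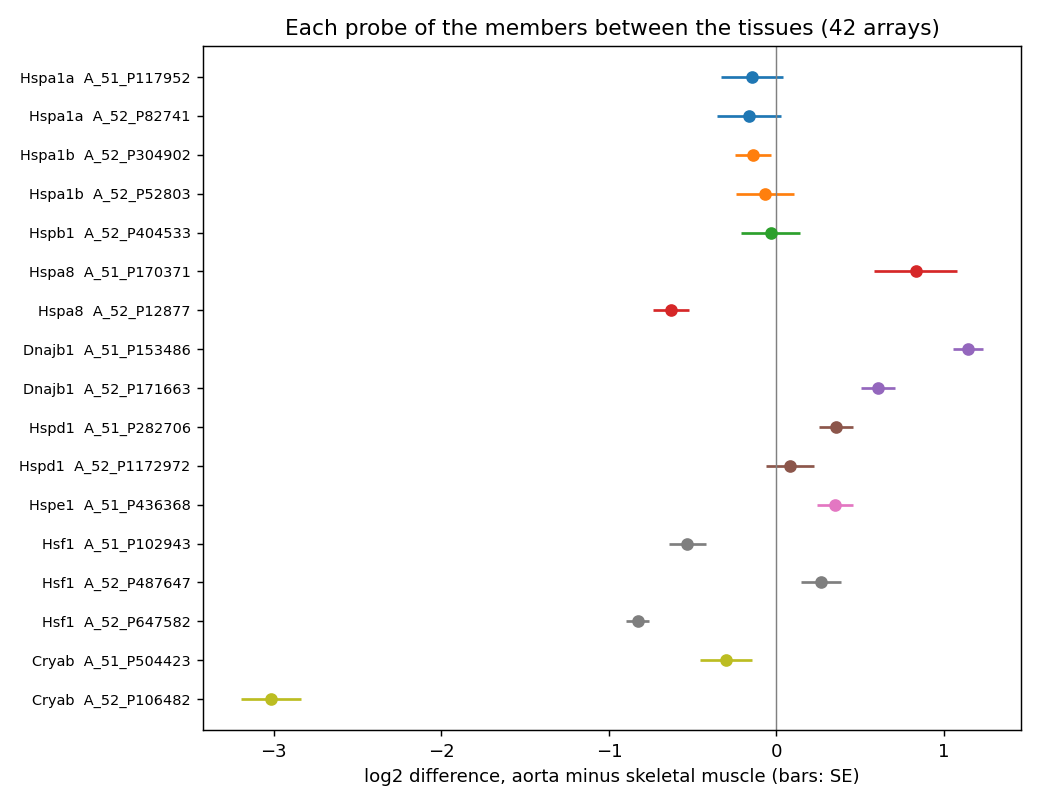
Log2 difference, aorta minus skeletal muscle (x axis), of each of the 17 probes of the 9 members (y axis), from a fit over 42 arrays with group as a covariate. Bars are SE and colours mark the gene. Probes of Hspa8 and of Hsf1 lay on both sides of 0, and 1 Cryab probe stood at -3.02. The Hspd1 and Hspe1 values change sign under another scaling.

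The diabetic and macroangiopathy groups were compared with healthy mice, which also differ in strain, and Hspa8 was the only member called. In aorta, Hspa8 read 11.63, 12.38 and 11.86 in the 3 healthy arrays, 12.47, 12.37 and 12.73 in diabetic arrays and 12.76, 12.85 and 12.86 in macroangiopathy arrays. All macroangiopathy aortas lay above all healthy ones, and the diabetic range met the healthy range at its lower edge. Hspa8 was higher in macroangiopathy than in healthy aorta by 0.87 ± 0.19, 1.83-fold (adjusted p = 0.0278), the sole member called there, against 6.16% of 15742 genes tested. Only 1 of its probes separated these aortas. A_51_P170371 read 11.686, 13.605 and 12.525 in healthy and 13.966, 14.67 and 14.526 in macroangiopathy aorta. A_52_P12877 overlapped, with 11.573, 11.146 and 11.184 against 11.553, 11.026 and 11.186. Healthy aortas 1 and 3 lie on slide 1, where the first probe read low in every group.

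In muscle Hspa8 read 12.06, 12.50 and 12.26 in healthy arrays, 12.75, 12.86 and 13.14 in diabetic arrays and 12.88, 12.82 and 12.89 in macroangiopathy arrays. Every diabetic and macroangiopathy muscle array was above every healthy one, but the muscle differences of 0.65 ± 0.22 (adjusted p = 0.222) and 0.60 ± 0.19 (adjusted p = 0.184) did not pass the test. Over both tissues, Hspa8 was higher by 0.61 ± 0.15 in diabetic (adjusted p = 0.0396) and by 0.73 ± 0.14 in macroangiopathy mice (adjusted p = 0.0135), each time the only member called, against 4.5% and 5.17% of all genes. Leaving out 1 array at a time, the diabetic value did not pass in 9 of 12 fits (0.54 to 0.71) and the macroangiopathy value passed in all 12 (0.65 to 0.81), and in aorta alone it did not pass in 6 of 12 (0.71 to 1.08).

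The Hspa8 differences from healthy over both tissues rested on 1 probe and moved with the slides. For A_51_P170371 the macroangiopathy minus healthy difference over both tissues was 1.37 ± 0.31 (adjusted p = 0.0255), and for A_52_P12877 it was 0.09 ± 0.17 (adjusted p = 0.772). In a fit of all 42 arrays that had a term for slides 1, 3 and 11, the macroangiopathy difference was 0.55 (adjusted p = 0.0511) and the diabetic one 0.47 (adjusted p = 0.0576). Without the arrays of those slides, which leaves 1 healthy array in each tissue that is assumed to vary like the others, the values were 0.53 (adjusted p = 0.0284) and 0.43 (adjusted p = 0.187). Without the 3 aortas whose markers stood apart they were 0.65 (adjusted p = 0.0126) and 0.58 (adjusted p = 0.0674). Marker sums moved with the comparison in aorta: the smooth muscle sum was 13.05 to 16.69 in healthy and 17.33 to 17.78 in macroangiopathy arrays, with 1 of 6 markers called higher. The red cell sum was 15.96 to 17.58 and 18.44 to 18.67, with 3 of 3 called higher. The nerve sum was 9.96 to 11.90 and 13.15 to 14.54, with 1 of 3 called higher, and the fibroblast sum 11.76 to 12.53 and 12.83 to 12.95, with 0 of 4 called. The white and brown adipocyte sums overlapped, with 1 of 6 called higher and 1 lower, and 1 of 4 called lower. The part of these markers in the aorta values of Hspa8 and the other members was not tested.

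Hspa1a differed from healthy in opposite directions in the 2 tissues, without passing the test in either. In aorta it read 8.18, 10.18 and 9.38 in healthy and 10.05, 10.47 and 10.16 in macroangiopathy arrays. In muscle it read 10.61, 11.31 and 11.32 in healthy and 9.91, 10.003 and 10.28 in macroangiopathy arrays. The muscle ranges of Hspa1a did not overlap, and the aorta ranges did, through healthy aorta 2. The differences of Hspa1a were 0.98 ± 0.41 in aorta (adjusted p = 0.176) and -1.02 ± 0.41 in muscle (adjusted p = 0.306), and the difference between the tissues was 2.00 ± 0.58 (unadjusted p = 0.0059, adjusted p = 0.219).

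Hspb1 was likewise highest in healthy muscle, at 14.16, 14.33 and 15.40, against 13.43, 13.43 and 13.65 in macroangiopathy muscle. These ranges did not overlap, and the Hspb1 difference was -1.13 ± 0.67 (adjusted p = 0.506). In the same fit Hspb1 spread widely in healthy aorta, at 11.69 in healthy aorta 1 and at 14.46 and 14.83 in the other 2. On slide 3 alone, the 2 healthy muscle arrays held 14.16 and 14.33 for Hspb1 and 10.61 and 11.31 for Hspa1a, above the 2 rosiglitazone arrays of that slide at 13.63 and 13.72 for Hspb1 and 9.51 and 10.10 for Hspa1a.

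Of the 9 members, 4 did not overlap between macroangiopathy and healthy muscle, against 28.7% of all genes: Hspa1a and Hspb1 were lower, and Hspa8 and Hspd1 (0.30 ± 0.28, adjusted p = 0.692) were higher. None of the 9 was called there, 2 were at an unadjusted p under 0.05 (13.9% of all genes were), and 1.56% of all genes were called. The 2 Hspd1 probes moved opposite ways with the slides in muscle, as given below. Without the arrays of slides 1, 3 and 11, 4 members and 16.9% of all genes passed, but healthy muscle 3 was then the only healthy array, its spread was taken from the other groups, and it held the highest Hspb1 and Hspa1a of the 3. Marker sums moved with this comparison: the white adipocyte sum was 14.997 to 16.35 in healthy and 12.46 to 14.44 in macroangiopathy muscle, with 2 of 6 markers called lower, and the leukocyte sum 9.56 to 10.71 and 9.15 to 9.28. The skeletal muscle sum was 20.34 to 20.52 and 20.555 to 20.579, and that of slow muscle 17.03 to 17.25 and 17.30 to 17.58, with no marker of these 3 lists called. The part of these markers in the muscle values was not tested.

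In aorta 4 of the 9 members did not overlap between macroangiopathy and healthy mice, against 28% of all genes, with Hspa8, Hsf1 and Cryab higher and Dnajb1 lower. Hsf1 read 10.35, 10.23 and 9.89 in healthy and 10.54, 10.499 and 10.40 in macroangiopathy aorta, a difference of 0.32 ± 0.19 (adjusted p = 0.334). Its probe A_51_P102943 read 7.411, 8.454 and 7.51 in healthy and 8.692, 8.768 and 8.752 in macroangiopathy aorta, with healthy aortas 1 and 3 on slide 1. Its probe A_52_P487647 had its highest aorta value, 13.932, in healthy aorta 1. Cryab read 8.49, 10.59 and 10.56 in healthy, 11.01, 12.02 and 11.05 in diabetic and 11.24, 10.98 and 10.83 in macroangiopathy aorta, so every diseased array was above every healthy one. The Cryab difference was 1.49 ± 0.50 for diabetic (adjusted p = 0.16) and 1.14 ± 0.47 for macroangiopathy aorta (adjusted p = 0.166), and the lowest value was that of healthy aorta 1. Dnajb1 was lower, at 11.08, 10.48 and 10.37 in healthy against 10.19, 10.07 and 9.98 in macroangiopathy aorta, a difference of -0.56 ± 0.23 (adjusted p = 0.16). Only its probe A_52_P171663 separated these aortas, at 9.969, 9.008 and 8.842 in healthy and 8.494, 8.17 and 8.03 in macroangiopathy. Its probe A_51_P153486 overlapped, at 12.187, 11.942 and 11.888 against 11.889, 11.96 and 11.922. In diabetic against healthy aorta none of the 9 was called, against 2.22% of all genes, and 3 had an unadjusted p under 0.05, against 17%. In muscle none was called, against 1.45%, and 1 had an unadjusted p under 0.05, against 12.7%.

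The macroangiopathy and diabetic groups differed in the diet and L-NAME. In limma's fits none of the 9 members was called between them over both tissues, in aorta or in muscle, with 0, 1 and 0 at an unadjusted p under 0.05. Of all genes, 0%, 0.0318% and 0% were called, and 5.12%, 7.73% and 2.87% had an unadjusted p under 0.05. The member differences lay between -0.34 (Cryab) and 0.30 (Hspa8) in aorta and between -0.30 (Cryab) and 0.08 (Hspe1) in muscle. Hspa8 was the one member whose aorta arrays did not overlap, against 9.58% of all genes, with all macroangiopathy arrays above all diabetic ones.

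**Figure D3:**
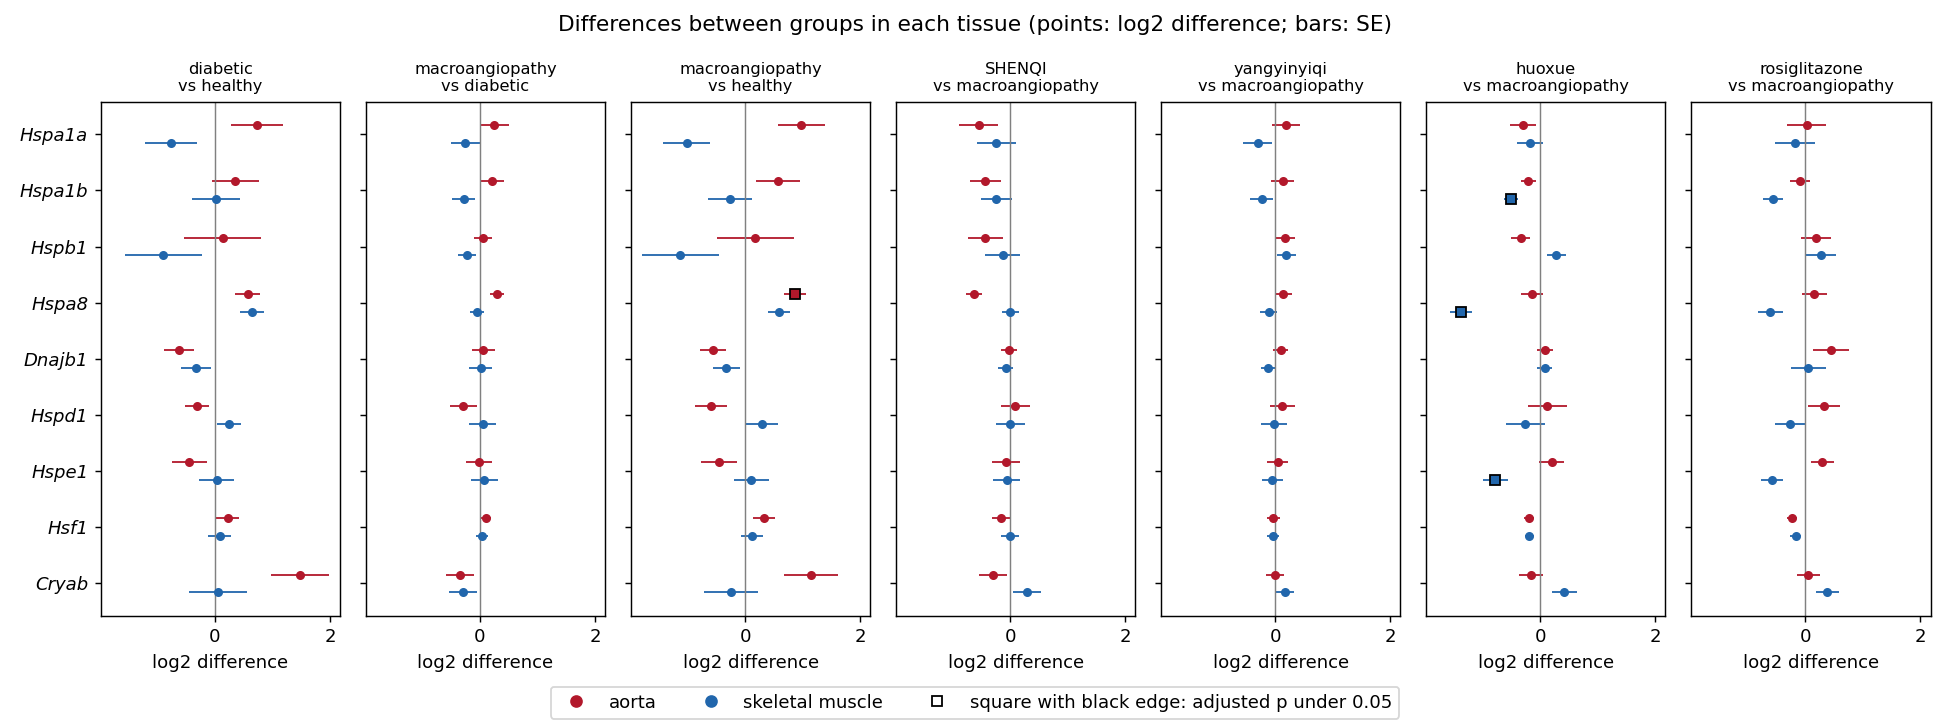
Log2 difference of the 9 members (y axis) in the 7 comparisons (panels), in aorta (red) and skeletal muscle (blue), with bars of SE from fits to the 12 arrays of each comparison. Black-edged squares have an adjusted p under 0.05: Hspa8 in macroangiopathy against healthy aorta, and Hspa8, Hspa1b and Hspe1 in huoxue against macroangiopathy muscle. In SHENQI and yangyinyiqi all values lay between -0.63 and 0.30.

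SHENQI, the whole compound, and yangyinyiqi, 1 of its parts, left all 9 members uncalled against macroangiopathy. For SHENQI, 1 member over both tissues, 1 in aorta and 0 in muscle had an unadjusted p under 0.05, against 2.71%, 4.67% and 1.14% of all genes, and no gene of the array was called (0%). That member was Hspa8, at 11.92, 12.21 and 12.46 in SHENQI aorta against 12.76, 12.85 and 12.86 in macroangiopathy aorta. The Hspa8 ranges did not overlap (1 of the 9 members in aorta, with the share of all genes not given here), and the difference was -0.63 ± 0.14 (adjusted p = 0.685). Both probes had lower means in SHENQI aorta (-0.75 ± 0.31 for A_51_P170371, adjusted p = 0.9, and -0.50 ± 0.18 for A_52_P12877, adjusted p = 0.896). A_51_P170371 read 12.81 in SHENQI aorta 1, on slide 1, where this probe read low in every group. It read 14 and 14.1 in SHENQI aortas 2 and 3, on slide 2, inside the macroangiopathy range of 13.966 to 14.67. A_52_P12877 read 11.021, 10.427 and 10.809 in SHENQI and 11.553, 11.026 and 11.186 in macroangiopathy aorta, without overlap. All macroangiopathy aortas lie on slide 6, and the part of the slide was not tested. On slide 7, which holds 2 muscle arrays of each group, the SHENQI minus macroangiopathy values of the members ran from -0.23 for Hspa1b to 0.27 for Cryab.

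For yangyinyiqi, 0 members had an unadjusted p under 0.05 over both tissues, in aorta or in muscle, against 3.41%, 3.9% and 1.81% of all genes. No gene of the array was called in any of these (0%). In muscle 2 of the 9 members, Hspa1a and Hspa1b, did not overlap between yangyinyiqi and macroangiopathy, both lower. The share of all genes without overlap there is not given here, so the count is not read as a result about the members. Hspa1a was lower in all yangyinyiqi muscle arrays, 9.67, 9.79 and 9.81, than in all macroangiopathy muscle arrays, and its difference was -0.31 (adjusted p = 1). In aorta the highest Hspa1a value of that group was 11.01, on the slide it shares with the macroangiopathy aortas.

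Against macroangiopathy, 3 members were lower in the muscle of mice given huoxue, another part of the compound, and none was called in aorta. In huoxue muscle, Hspa8 read 11.53, 11.11 and 11.83, against 12.88, 12.82 and 12.89 in macroangiopathy muscle. Hspe1 read 11.39, 11.49 and 11.62, against 12.23, 12.41 and 12.19. Hspa1b read 6.45, 6.55 and 6.76, against 7.00, 7.04 and 7.25. None of these ranges overlapped.

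The differences were -1.37 ± 0.19 for Hspa8 (adjusted p = 0.00157), -0.78 ± 0.22 for Hspe1 (adjusted p = 0.0442) and -0.51 ± 0.13 for Hspa1b (adjusted p = 0.0296), 3 of 9 members called, all lower, against 10.6% of 15727 genes called and 6.78% called lower. For 7 of the 9 members the muscle groups did not overlap, against 46.7% of all genes. Hspb1 and Cryab were the 2 that lay above macroangiopathy, with differences of 0.28 (Hspb1) and 0.42 (Cryab) that did not pass the test. The 3 huoxue muscle arrays all lie on slide 11 with no macroangiopathy array, so group and slide cannot be told apart. With slides 1, 3 and 11 as a batch term no member was called, and the values were -1.10 for Hspa8 (adjusted p = 0.127), -0.13 for Hspe1 (adjusted p = 1) and 0.18, the other direction, for Hspa1b (adjusted p = 1). The share of all genes called with that term is not given here. The skeletal muscle marker sum was 20.265 to 20.347 in huoxue and 20.555 to 20.579 in macroangiopathy muscle, with 0 of 12 markers called. The part of these markers in the huoxue values was not tested. Leaving out 1 array at a time, Hspa8 passed in all 12 fits (-1.54 to -1.19), while Hspe1 did not pass in 7 of 12 and Hspa1b in 5 of 12.

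In aorta the huoxue minus macroangiopathy differences ran from -0.34 for Hspb1 to 0.20 for Hspe1, with none called and 1 member at an unadjusted p under 0.05, against 4.74% of all genes. No gene of the array was called there (0%). That member was Hsf1, at 10.20, 10.30 and 10.34 in huoxue aorta, below every macroangiopathy aorta, a difference of -0.20 ± 0.09 (adjusted p = 0.95). It was the one member whose aorta groups did not overlap, against 7.48% of all genes. The Hspa8 difference in aorta minus that in muscle was 1.24 ± 0.27 (adjusted p = 0.0377), against 3.05% of all genes called. It did not pass in 9 of 12 fits that leave out 1 array (1.05 to 1.404), and with the batch term it was 0.96 (adjusted p = 0.978). The same difference between tissues did not pass for Hspe1 (0.98 ± 0.30, adjusted p = 0.124) or Hspa1b (0.30 ± 0.18, adjusted p = 0.43).

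Rosiglitazone, an agonist of the nuclear receptor PPAR gamma, left all 9 members uncalled against macroangiopathy. Of the 9, 5 did not overlap between rosiglitazone and macroangiopathy muscle, against 34.7% of all genes: Hspa1b, Hspa8, Hspd1 and Hspe1 were lower and Cryab was higher (0.38 ± 0.20, adjusted p = 0.349). Hspd1 read 11.64, 11.95 and 11.89, a difference of -0.26 ± 0.28 (adjusted p = 0.694). In muscle the 2 Hspd1 probes moved opposite ways with the slides, as given below. Hspe1 read 11.72, 11.64 and 11.74 in rosiglitazone muscle, below every macroangiopathy array, with a difference of -0.58 ± 0.20 (adjusted p = 0.145). Hspa1b read 6.62, 6.45 and 6.55, also below every macroangiopathy array, with a difference of -0.56 ± 0.17 (adjusted p = 0.104). Hspa8 split by slide: it read 11.65 in the array of slide 11 and 12.73 and 12.40 in the arrays of slide 3, with a difference from macroangiopathy of -0.61 ± 0.22 (adjusted p = 0.167). None of the 9 was called in muscle or aorta, against 3.5% and 0% of all genes, and 3 and 1 had an unadjusted p under 0.05, against 18.5% and 11.6%. Of the 2 Hspa1b probes, A_52_P304902 was not well above background on any huoxue or rosiglitazone muscle array, but it entered the Hspa1b means.

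The 2 Hspa8 probes read differently in muscle. A_51_P170371 read 11.19, 10.08 and 11.31 in huoxue muscle, 11.51, 13.15 and 12.69 in rosiglitazone muscle and 13.80, 13.88 and 13.78 in macroangiopathy muscle. A_52_P12877 read 11.88, 12.15 and 12.34 in huoxue muscle, 11.79, 12.30 and 12.12 in rosiglitazone muscle and 11.97, 11.77 and 12.01 in macroangiopathy muscle. The first probe separated these muscle groups and the second did not.

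For A_51_P170371 the huoxue minus macroangiopathy difference was -2.96 ± 0.30 (adjusted p = 0.000115 in the fit over all probes) and the rosiglitazone one -1.37 ± 0.34 (adjusted p = 0.0353), against 16.3% and 7.35% of probes called. For A_52_P12877 they were 0.21 ± 0.21 (adjusted p = 0.559) and 0.16 ± 0.18 (adjusted p = 0.672). In both tissues A_51_P170371 also separated the slides whatever the group: 11.69 to 12.89 in the 4 aortas of slide 1 against 13.61 to 14.67 in the other 17, and 10.08 to 13.15 in the 8 muscle arrays of slides 3 and 11 against 13.35 to 14.16 in the other 13. The batch term was -1.21 ± 0.23 for A_51_P170371 (adjusted p = 0.000164) and 0.65 ± 0.17, the other way, for A_52_P12877 (adjusted p = 0.00621).

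**Figure D4:**
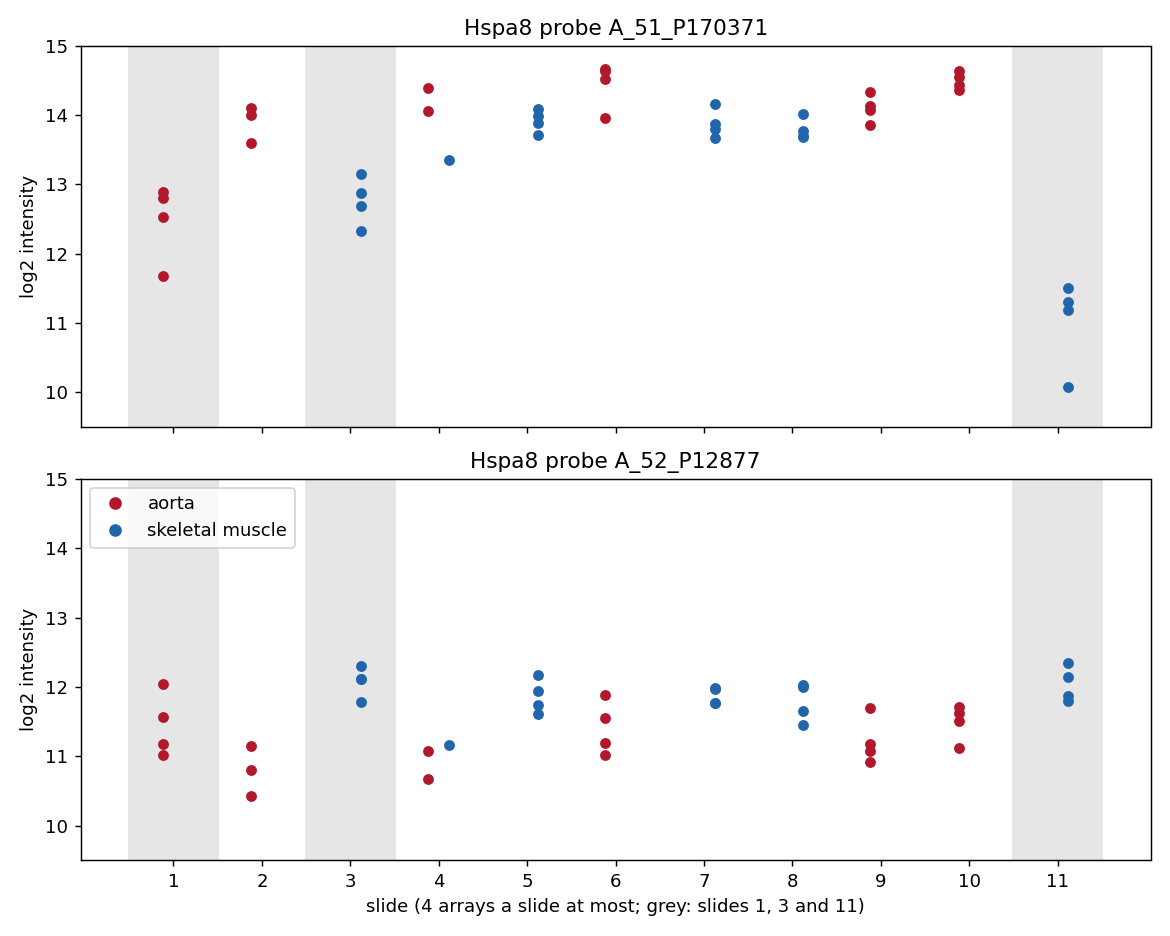
Log2 normalised intensity (y axis) of the 2 Hspa8 probes (panels) by slide (x axis), with 1 point per array, aorta in red, muscle in blue and slides 1, 3 and 11 shaded. A_51_P170371 is lower on the shaded slides in both tissues, down to 10.08 on slide 11, and A_52_P12877 is not.

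Of the 17 member probes, 8 differed with the slide split, 6 lower and 2 higher on slides 1, 3 and 11, against 25% of all probes. Hsf1 A_51_P102943 was lower there in both tissues without overlap, at 7.41 to 8.05 against 8.13 to 8.95 in aorta and 8.03 to 8.62 against 8.93 to 9.69 in muscle. Its huoxue and rosiglitazone differences in muscle were -0.66 ± 0.10 (adjusted p = 0.00165) and -0.69 ± 0.10 (adjusted p = 0.00239), while the other 2 Hsf1 probes were not called. Hspe1 in muscle split the same way, at 11.38 to 12.03 on slides 3 and 11 and 12.10 to 12.47 on the rest, with the 2 healthy arrays of slide 3 at 12.004 and 12.03. Hspd1 A_52_P1172972 also split in muscle, at 9.28 to 9.78 on slides 3 and 11 and 10.12 to 10.67 on the rest. The other Hspd1 probe, A_51_P282706, ran the other way with overlap, at 13.96 to 14.44 against 13.51 to 14. Hspa1a was not among them: both of its probes overlapped between the slide sets in both tissues, and the batch term of its mean was -0.27 ± 0.31 (adjusted p = 0.623).

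Across the 7 groups, limma's moderated F test over the 21 arrays of a tissue called 5 of the 9 members in muscle and 0 in aorta, against 36.2% and 1.32% of all genes. The adjusted p in muscle was 0.000132 for Hspe1, 0.000573 for Hspa8, 0.00495 for Hspb1, 0.00763 for Hspa1a and 0.0496 for Hspa1b, which did not pass in 15 of 21 fits that leave out 1 array. In aorta 1 member was at an unadjusted p under 0.05 (11.3% of all genes were), Hspa8, with an adjusted p of 0.0703. With the slides as a batch term none of the 9 was called in muscle, and the share of all genes called in that fit is not given here.

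The order of the muscle means differed by gene. For Hspb1 healthy muscle was first at 14.63 ± 0.68 (SD, n = 3) and did not overlap the next group, huoxue at 13.78, while all further neighbours overlapped. For Hspa1a healthy muscle was first at 11.08, and each group overlapped its neighbour down to yangyinyiqi at 9.76. For Hspa8 the order ran from diabetic at 12.91 to huoxue at 11.49, and the break without overlap was between yangyinyiqi at 12.76 and healthy at 12.27. For Hspe1 the breaks lay between healthy at 12.17, rosiglitazone at 11.70 and huoxue at 11.50. In aorta Hspa8 ran from rosiglitazone at 12.98 to healthy at 11.95, and every neighbour overlapped.

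Other genes of the chaperone network were read from fixed lists of HSP70 and HSP90 proteins and cofactors, J-domain proteins, small heat shock proteins, cytosolic chaperonin, heat shock factors and genes that heat shock factor 1 induces. Of their 92 genes beside the 9 members, 88 were tested in huoxue against macroangiopathy muscle, and 3 were higher and 11 lower (15.9%, against 10.6% of all genes), with a median difference of -0.05 against 0.05 over all genes. Bag3, the cofactor that joins HSP70 to the small heat shock proteins and to autophagy, fell by 1.37 on the log2 scale (-1.37 ± 0.16, adjusted p = 0.000711). Bag3 read 9.58, 9.76 and 9.63 in huoxue, 9.93, 10.09 and 9.99 in rosiglitazone and 11.03, 10.89 and 11.17 in macroangiopathy muscle, and 9.59 and 10.38 in the healthy arrays of slide 3 against 11.15 in the healthy array of slide 4. It was also lower in rosiglitazone muscle (-1.02 ± 0.12, adjusted p = 0.00157), and its low values fall on the same slides as those of Hspa8. Dnaja1, a J-domain partner of HSP70 proteins, was lower in huoxue muscle (-0.99 ± 0.16, adjusted p = 0.0036), as was Hsf2 (-0.86 ± 0.13, adjusted p = 0.00229), which encodes another heat shock factor. Hsf2 read 5.18, 5.53 and 5.6 in huoxue and 6.32, 6.14 and 6.44 in macroangiopathy muscle. It read 5.74 and 5.79 in the healthy arrays of slide 3 against 6.47 in that of slide 4, so its low values also fall on slides 3 and 11. In rosiglitazone muscle Dnaja1 read 8.21 on slide 11 and 8.39 and 8.35 on slide 3. Every macroangiopathy muscle array was above these, at 8.95, 8.89 and 8.89. In healthy muscle Dnaja1 read 8.69 in both arrays of slide 3 and 8.42 in that of slide 4.

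Against healthy aorta, 4 of 88 network genes were higher and 2 lower in macroangiopathy (6.82%, against 6.16% of all genes). Hspa2, an HSP70 best known from testis, read 7.01, 7.81 and 7.30 in healthy and 8.84, 8.99 and 9.04 in macroangiopathy aorta, a difference of 1.58 ± 0.21 (adjusted p = 0.0039). Hspb7, a small heat shock protein of heart and skeletal muscle, was higher by 2.03 ± 0.44 (adjusted p = 0.0281), and Hspb2, the gene beside Cryab, by 1.29 ± 0.30 (adjusted p = 0.0348). Pfdn1, a subunit of the prefoldin that brings actin and tubulin to the chaperonin, was lower in both tissues (-1.53 ± 0.24 in aorta, adjusted p = 0.00802, and -1.40 ± 0.24 in muscle, adjusted p = 0.0165). Of the 20 genes that heat shock factor 1 induces, 0 were higher and 1 lower in macroangiopathy aorta and none differed in muscle, with medians of -0.19 and -0.23 against 0.01 and 0.03 over all genes. Between tissues the other 8 small heat shock proteins had a median difference of -2.02, and 5 of them were lower and 0 higher in aorta (62.5%, against 76.4% of all genes).

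Array by array, Hspa1a moved with Hspa1b in both tissues and with Hspb1 in aorta. The relation of Hspa1a to each of the other 8 members was computed in each tissue, 16 relations in all, on each array's deviation from its group mean, with a two-sided permutation test of 100000 resamples within groups. In aorta, Hspa1a followed Hspa1b (r = 0.88, adjusted p = 0.00496; rho = 0.82, adjusted p = 0.00603) and Hspb1 (r = 0.82, adjusted p = 0.00533; rho = 0.88, adjusted p = 0.00144) over 21 arrays. In muscle it followed Hspa1b (r = 0.79, adjusted p = 0.00533; rho = 0.80, adjusted p = 0.0056). The Hspa1b probes can read Hspa1a RNA, so that pair is not independent. Without the 2 arrays farthest from the median of Hspa1a the r values were 0.82, 0.77 and 0.73, and with slide means removed 0.93, 0.84 and 0.87. Group means were not recomputed without those arrays, so their part in the other deviations of their group stayed in. In Hspb1 healthy aorta 1 deviated by -1.97 and healthy aorta 3 by 1.17. The other 13 relations did not pass. Among them were Cryab in aorta (r = 0.65, raw p = 0.0328, adjusted p = 0.131; rho = 0.60, adjusted p = 0.123) and Hspb1 in muscle (r = 0.38, raw p = 0.228, adjusted p = 0.456; rho = 0.49, adjusted p = 0.258). Hspa1a with Hspa8 gave r = 0.42 in aorta (adjusted p = 0.417; rho = 0.33, adjusted p = 0.516) and r = 0.00 in muscle (adjusted p = 0.996; rho = 0.11, adjusted p = 0.775).

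**Figure D5:**
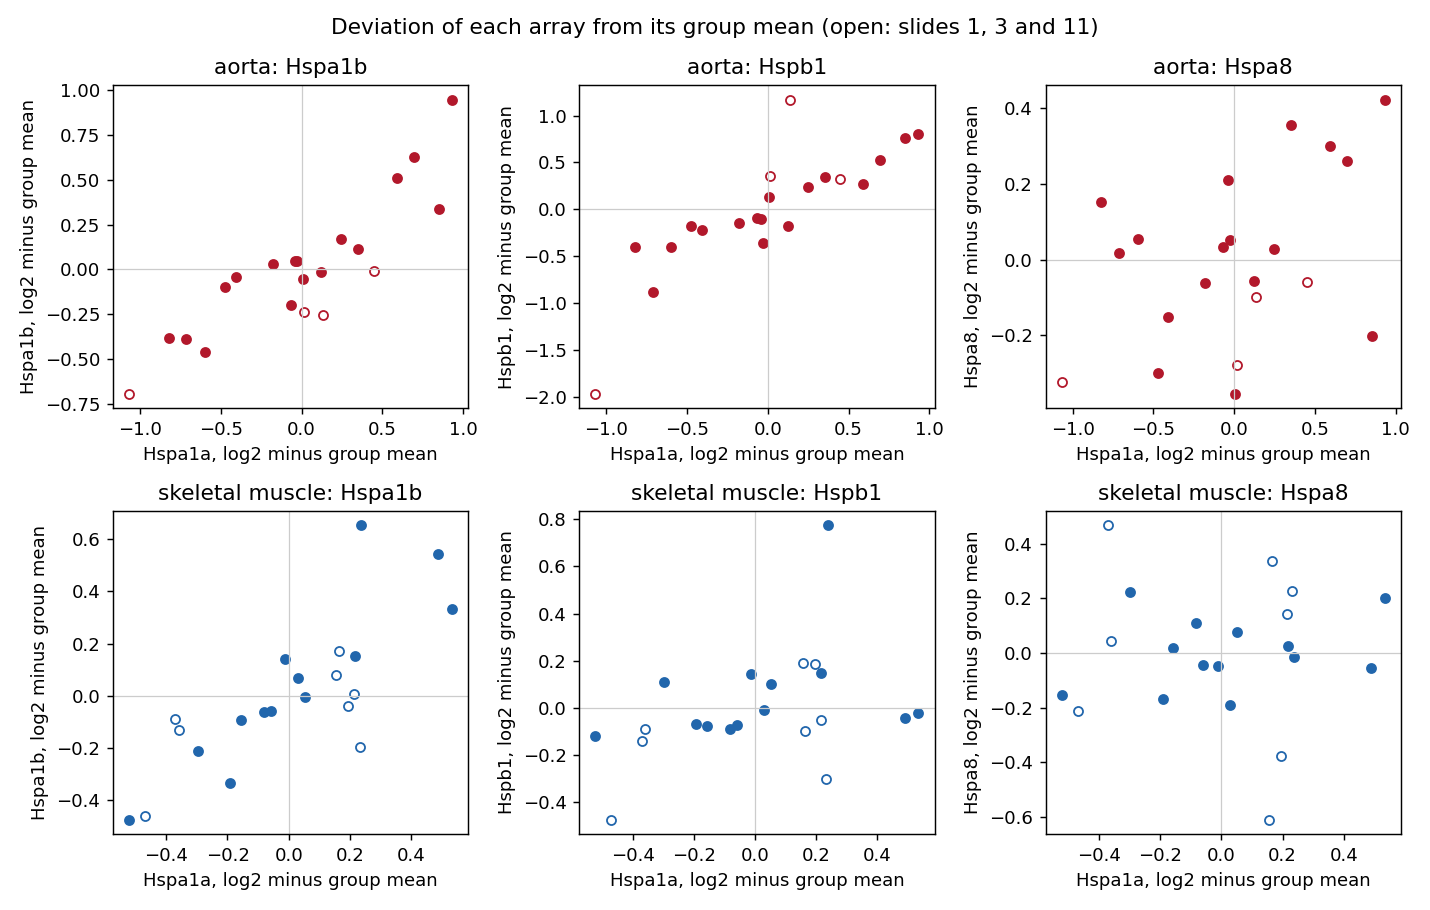
Deviation of each array from its group mean (log2) in Hspa1a (x axis) against that in Hspa1b, Hspb1 and Hspa8 (y axes), in aorta (top) and skeletal muscle (bottom). Each point is 1 of 21 arrays and open points are slides 1, 3 and 11. The points rise together for Hspa1b in both tissues and for Hspb1 in aorta, where r was 0.82, and form no line for Hspa8.

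Of 16107 genes on all 42 arrays, after the mean of each tissue was removed, the genes most like each member were named by Pearson's r, as a description of these arrays, which share slides and groups. The nearest 3 to Hspa1a were Arhgef5 (0.85), Hspa1b (0.84) and Ecm1 (0.82). The nearest to Cryab were Sgca (0.93), Cap2 (0.88) and Hspb2 (0.87). The nearest to Hspd1 were Hspa9 (0.90), Aifm1 (0.89) and Ndufa10 (0.89), and the nearest to Hspb1 were Ctnna1 (0.84), Klhl30 (0.77) and Xirp1 (0.77). Those nearest to Hspa8 were Dhrs1 (0.84), Smad7 (0.84) and Lonrf1 (0.84), and those nearest to Dnajb1 were Reep4 (0.82), Plk3 (0.82) and Dedd2 (0.81).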

How the data were processed

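RNA of 42 tissue samples was hybridised to single-colour Agilent mouse arrays, scanned and quantified by the authors with Feature Extraction 10.7.3.1 (per the labels and file headers), and the deposited scanner files give intensity per spot, with probe positions in mm9. Quantile-normalised log2 values of the same arrays, deposited in a table of the whole series, served only as an alternative. Median signals were background-corrected with normexp (offset 0), logged, quantile-normalised over 42 arrays without control spots and averaged per probe, then per gene symbol. A probe was kept if some set in the comparison had all 3 of its arrays well above background. The number of arrays limits the precision.

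Samples were grouped by the labels. Each of 7 comparisons was fitted with limma 3.58.1 (R 4.3.3) on its 12 arrays, with a tissue term or with 4 means. The tissues were compared over 42 arrays with group as a covariate, and the 7 groups by a moderated F test in each tissue. P-values were adjusted by Benjamini-Hochberg over all genes, at a threshold of 0.05, and the code was tested on simulated data. The members, the gene lists and the split of slides 1, 3 and 11 were chosen with earlier results of these data known. The 9 members were described in full, and of each chaperone list up to 3 genes with the largest differences past the threshold could be named. Replicate numbers were not taken as pairs: arrays of 1 group with the same number in both tissues had a median correlation of deviations of 0.012. Alternatives were the background offset, processed signals, the authors' table, the filter, the brightest probe, the arrays fitted, slide and replicate terms, and leaving out arrays. Figures were drawn with matplotlib 3.10.9. Motifs were searched with Python 3.11.15. Protein sequences were not used here.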

Additional observations from a re-analysis of the deposited data

Results flagged for a closer look

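The Hspa8 difference between huoxue and macroangiopathy mice was not alike in the 2 tissues: aorta minus skeletal muscle gave 1.24 ± 0.27 on the log2 scale (adjusted p = 0.0377 for the interaction in limma over all genes). All 3 huoxue muscle arrays lie on slide 11, and all 3 huoxue aorta arrays on slides 9 and 10. Group and slide cannot be told apart in muscle.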

How the results depend on the processing

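Counts are of members called among 9. Shares of all genes are not given beside them, so the counts are not read as results about the members. With processed signals scaled to the 75th percentile, 0 were called in diabetic and 0 in macroangiopathy against healthy over both tissues, 0 in macroangiopathy against healthy aorta and 1 in rosiglitazone muscle, and Hspd1 (-0.21) and Hspe1 (-0.17) turned direction between tissues. With the authors' table, 0 were called in diabetic against healthy over both tissues and 0 in macroangiopathy against healthy aorta. With no filter, 0 were called in diabetic against healthy over both tissues and 0 in the huoxue interaction. With the brightest probe these were 0 in diabetic against healthy and 1 in rosiglitazone muscle, and Hsf1 turned to 0.27. With 14 means over 42 arrays, 3 were called in diabetic against healthy over both tissues and 1 in aorta, 2 in macroangiopathy against healthy aorta, 1 in huoxue muscle, 0 in its interaction, and 1 among the 7 groups in each tissue. With slide as a random block, 0 were called in diabetic against healthy, 0 in macroangiopathy against healthy aorta, 1 each in rosiglitazone aorta, muscle and interaction, and 3 among the 7 groups in muscle. With slides 1, 3 and 11 as a batch term, 2 were called in diabetic against healthy aorta, 1 in the macroangiopathy against healthy interaction, 0 in huoxue muscle and interaction and 0 among the 7 groups in muscle, and Hspa1b turned to 0.18 in huoxue muscle. With the replicate number as a block, 1 was called in huoxue muscle, where Hspa1b and Hspe1 did not pass. Hspd1 between tissues and Hspa1b among the groups in muscle did not pass either, and no other call changed. The other settings were chosen after seeing the data. With each probe as a feature, a member with any probe called was counted: 8 among the 7 groups in muscle, 5 in huoxue muscle, 2 in rosiglitazone muscle and 0 in diabetic against healthy over both tissues. Without slides 1, 3 and 11, diabetic against healthy gave 2 in aorta, 1 in muscle and 1 in the interaction, macroangiopathy against healthy 2 over both tissues, 0 in aorta, 4 in muscle and 1 in the interaction, and the tissues 3, with 1 healthy array left in each tissue and assumed to vary like the others. Without the 3 aortas that stand apart, 0 were called in diabetic and 2 in macroangiopathy against healthy over both tissues and 1 in rosiglitazone muscle. Leaving out 1 array at a time gave 0 to 1 in diabetic against healthy over both tissues, 1 to 2 in macroangiopathy against healthy over both, 0 to 3 in aorta and 0 to 1 in the interaction, 4 to 5 between tissues, 0 to 1 among the 7 groups in aorta and 4 to 5 in muscle, 1 to 3 in huoxue muscle and 0 to 1 in its interaction, 0 to 1 in rosiglitazone muscle and 0 to 1 in its interaction, and 0 to 0 elsewhere. The cause of these changes was not tested. Slide as a fixed term could be estimated for some comparisons only.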
